A study of Caenorhabditis elegans with 34 samples.

Results

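The genes described here copy the genome and divide the cell. Of 46 listed genes, 20 for DNA replication and 26 for cell division, 44 were matched by symbol or synonym to the 20222 genes of the count table. The symbols cdc-45 and cdc-20 were not matched and were not analysed here. A gene was kept when 26 or more of the 34 libraries held 5 or more counts of it. All 44 matched genes passed, 19 of replication and 25 of division, out of 14245 genes that passed in all. The kept gene nearest to the filter was cdk-4, whose lowest library still held 16.5 CPM (counts per M mapped, M for 1000000), and no matched gene fell outside it.

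RNA was sequenced from whole Caenorhabditis elegans on day 5 at 25 °C, fed E. coli OP50. Every population carried the temperature-sensitive mutation spe-9(hc88), a defect in sperm function that sterilises the animals, so predicted long-lived and short-lived groups share it. Animals in the top or bottom 10% of fluorescence were kept from each of 17 microfluidic sorts, and each sort gave a high and a low library. The biomarkers were lin-4p::GFP (6 sorts; GFP mainly in the posterior intestine), mir-243p::GFP (4 sorts; intestine), mir-240/786p::GFP (4 sorts; spermatheca) and the red autofluorescence of worms without a reporter (3 sorts; intestine and uterus). Animals predicted to be long-lived were those bright for lin-4p::GFP or mir-243p::GFP and those dim for mir-240/786p::GFP or for autofluorescence. Each reporter was carried by a single strain, and lifespan was predicted for these animals, not measured in them.

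DNA replication begins when the origin recognition complex (ORC), CDC-6 and CDT-1 load the ring-shaped MCM helicase onto origins. GINS and CDC-45 then switch the helicase on, while the sliding clamp PCNA and ribonucleotide reductase serve the polymerases. Cyclin-dependent kinases (CDKs) and their cyclins time these steps and mitosis, and the anaphase-promoting complex (APC/C) ends mitosis by marking cyclins for destruction. In adult C. elegans somatic cells no longer divide. Mitosis is confined to the distal germline, oocytes store transcripts for the embryo, and unfertilised oocytes can copy their DNA repeatedly without dividing.

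Libraries held 15.8 to 26.1 M counts, with a median of 20.9 M. The gfp transcript was higher in every high library than in every low library of each of the 3 reporter strains. Sorts 1 and 2 of lin-4p::GFP stood apart from the other lin-4p::GFP sorts on the second principal component (9.56% of variance; 11.1 to 48.8 against -57.0 to -10.98). The 22 libraries of the other biomarkers lay at -8.91 to 26.27, a range overlapped by sorts 1 and 2 but not by sorts 3 to 6. Results that rest on lin-4p::GFP sorts 1 and 2 are also given without them. Germline transcripts differed between the groups: at an adjusted p under 0.0001, where 19.0% of all genes were higher and 21.6% lower, 10 of 12 oocyte and eggshell markers rose in predicted long-lived animals, with a median log2 fold change of 0.69. None of these 12 was at 0 in any library, and their summed level ran from 8280 to 14390 CPM in long-lived libraries and from 4479 to 11090 CPM in short-lived libraries. Of 7 germ granule markers 2 rose (median 0.64). Of 7 germline stem and early germ cell markers (median 0.50), 0 passed at an adjusted p under 0.0001 in edgeR and 6 at 0.05. At 0.05, 70.2% of all genes passed. With the sort as a block, 7 germ granule and 3 germline stem markers passed at 0.0001, beside 44.5% of all genes. Of the somatic lists, 4 of 8 intestinal markers rose, 4 of 8 neuronal and 3 of 5 epidermal markers fell, and 1 body wall muscle marker rose and 1 fell. Summed over the list, replication members held 5166 to 7889 CPM in long-lived and 5709 to 8285 CPM in short-lived libraries. The part of tissue content in the results was not tested. In bulk RNA of whole animals, fewer cells of a type and less RNA per cell cannot be told apart. Sperm markers were near 0 (summed level at most 35.2 CPM, with msp-3 at 0 in 18 libraries). Of the 5 sperm markers tested, ssp-10 rose (log2 fold change 2.33) and fer-1 fell (-0.82), at mean levels of 1.32 and 3.30 CPM. Of 5 embryonic zygotic genes tested 0 passed at 0.0001 in edgeR and 4 at 0.05, beside 70.2% of all genes at 0.05. The embryonic genes summed to 48.5 to 58.0 CPM in mir-240/786p::GFP low, against 18.8 to 22.8 CPM in mir-240/786p::GFP high and 15.6 to 37.3 CPM in all other groups.

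Members were first compared by their level. Per kilobase of exon, the median member stood at 97.5 CPM per kb against 12.3 for all genes with a known length. The highest was cyb-3, a B-type cyclin, at 908.9 CPM per kb, and the lowest was cdk-4, the cyclin D-dependent kinase, at 21.4 CPM per kb. Levels followed roles. The 6 MCM genes lay between 170.4 and 321 CPM per kb, whereas the 7 ORC and licensing genes lay between 39.4 and 81.8 and the 3 GINS genes between 59.1 and 84.9. PCNA (pcn-1) and the small ribonucleotide reductase subunit (rnr-2) reached 770.2 and 807 CPM per kb. Thus within the replication list every ORC, licensing and GINS gene lay below every MCM, clamp and nucleotide gene. Only 1 member, cdk-4, is on the X chromosome (2.27% of members against 14.5% of all genes with a position). The genes orc-1 and orc-4 are neighbours on chromosome III, on the same strand and 111 bases apart. The genes orc-5 and cyb-1 point away from each other on chromosome IV, 627 bases apart.

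**Figure D1:**
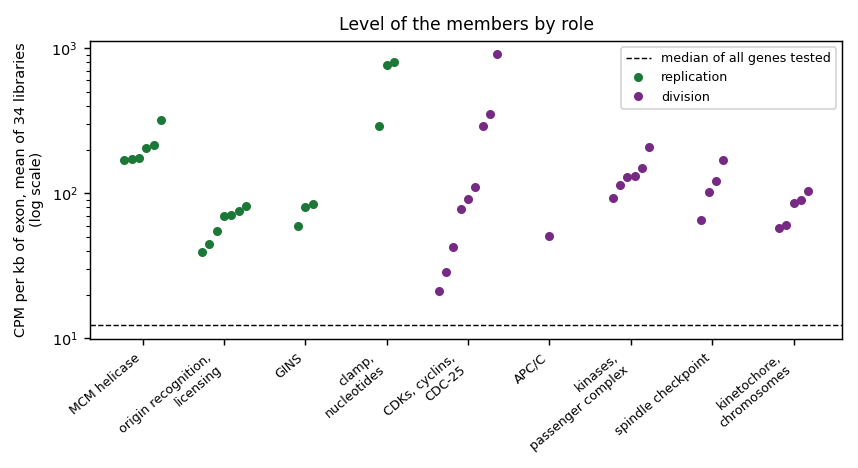
Mean level of each of the 44 genes over 34 libraries, in CPM per kb of exon on a log scale, grouped by role, with the median of all genes (12.3) as a dashed line. Every gene lies above that line, and MCM, clamp and nucleotide genes lie above the ORC, licensing and GINS genes.

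The 17 predicted long-lived and 17 predicted short-lived libraries were then compared in a model with an additive biomarker term, to ask which replication and division genes go with predicted lifespan whatever the biomarker. A gene is described as having risen or fallen in this pooled comparison at an adjusted p under 0.0001, and fold changes are long-lived over short-lived. Of the 44 members 11 passed (25%), against 40.6% of all genes tested. Of these 7 rose, against 19.0% of all genes, and 4 fell, against 21.6%. The median log2 fold change was 0.02 for the replication list and -0.08 for the division list, beside -0.01 for all genes. A change of under 0.25 on the log2 scale was seen for 28 members (63.6%), compared with 30.9% of all genes. At an adjusted p under 0.05, 21 members passed, beside 70.2% of all genes. The members that passed at 0.0001 were not spread evenly over roles: ORC, licensing and GINS gave 7, cyclins and the APC/C gave 3, mitotic kinases gave 1, and the MCM, clamp, nucleotide, spindle checkpoint and kinetochore genes gave none.

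**Figure D2:**
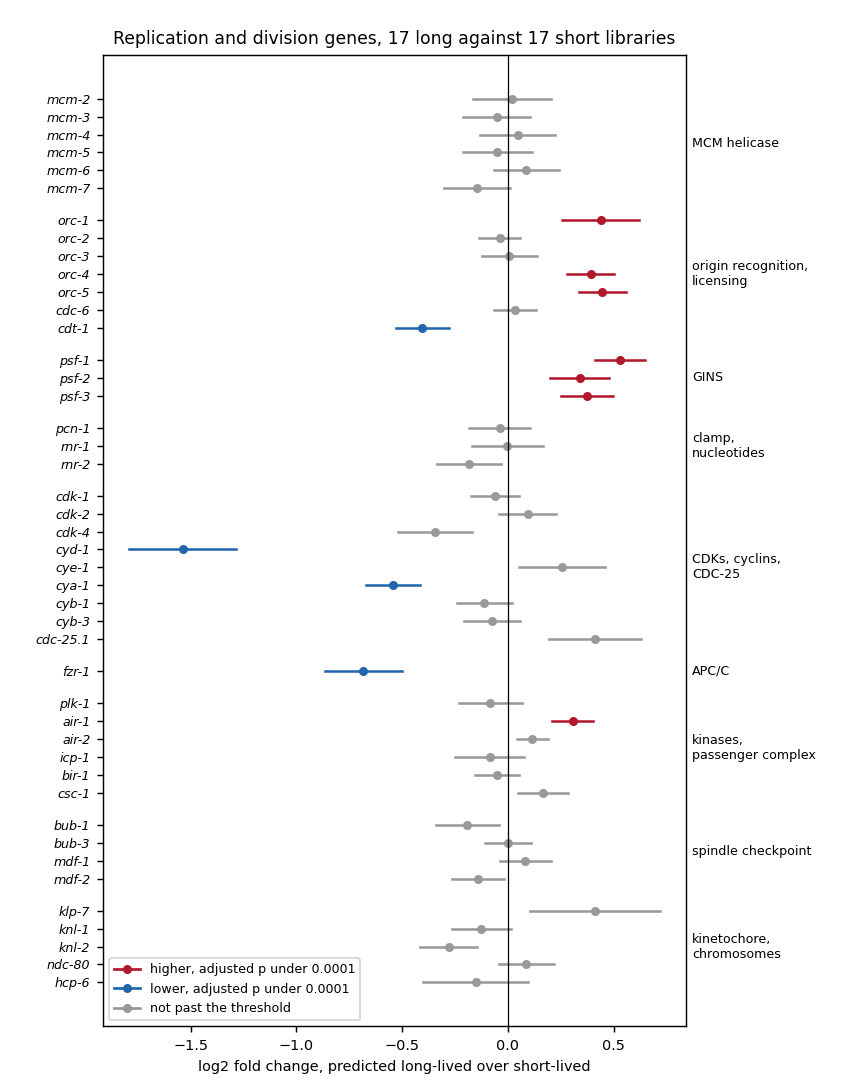
Log2 fold change of the 44 genes, 17 predicted long-lived against 17 predicted short-lived libraries, with 95% intervals; red rose and blue fell at an adjusted p under 0.0001, grey did not pass. The psf genes, orc-1, orc-4, orc-5 and air-1 lie to the right, cyd-1, fzr-1, cya-1 and cdt-1 to the left, and the MCM genes close to 0.

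Within the ORC, 3 of 5 subunits rose and 2 did not pass. The subunit gene orc-5 (WBGene00013857; chromosome IV, 10732832 to 10734588, WBcel235) was at 94.4, 108 and 127 CPM (lowest, median and highest of 6) in lin-4p::GFP high and at 63.4, 85.0 and 94.2 CPM in lin-4p::GFP low. It was at 104, 112, 90.6 and 97.0 CPM in mir-243p::GFP high and at 78.6, 92.7, 71.1 and 80.7 CPM in mir-243p::GFP low. Values were 106, 106, 101.4 and 94.2 CPM in mir-240/786p::GFP low and 70.1, 78.3, 62.1 and 74.4 CPM in mir-240/786p::GFP high. In every biomarker except mir-243p::GFP, where 92.7 CPM in a short-lived library exceeded 90.6 CPM in a long-lived one, the long-lived libraries of orc-5 lay above all short-lived ones. Autofluorescence low gave 96.4, 100.4 and 106 CPM and autofluorescence high 67.3, 68.7 and 72.0 CPM. The pooled log2 fold change of orc-5 was 0.45 ± 0.06 (SE; adjusted p = 1.33e-08), a 1.36-fold higher level that was seen in 17 of 17 sorts.

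The neighbours orc-1 and orc-4 also rose in 17 of 17 sorts. The subunit orc-4 averaged 54.5 ± 4.62 CPM (SD, n = 17) in long-lived and 41.6 ± 4.84 CPM in short-lived libraries, a log2 fold change of 0.39 ± 0.05 (adjusted p = 1.48e-07). The largest subunit, orc-1, averaged 189 ± 35.7 and 140.4 ± 29.0 CPM, with a log2 fold change of 0.44 ± 0.09 (adjusted p = 6.51e-05). This call was close to the threshold, since it was lost when any of 20 of the 34 libraries was left out, with an adjusted p of at most 0.000155. These were 3 lin-4p::GFP libraries (high 4, low 1 and low 2), 5 autofluorescence libraries (high 1, 2 and 3, low 1 and 3), all 8 mir-240/786p::GFP libraries and 4 mir-243p::GFP libraries (high 1 and 2, low 1 and 3). The other subunits gave log2 fold changes of -0.04 (orc-2) and 0.01 (orc-3), so that genes of a single complex differed among themselves.

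The 2 loading factors also differed from each other. The gene cdt-1, whose protein brings MCM to the ORC, fell in 17 of 17 sorts, from 211 ± 25.09 CPM in short-lived to 160.3 ± 29.9 CPM in long-lived libraries (log2 fold change -0.41 ± 0.06, adjusted p = 7.24e-07). Its lowest values, 104 and 110.0 CPM, were those of lin-4p::GFP high sorts 2 and 1, and without those sorts the log2 fold change was -0.34 (adjusted p = 1.77e-06). In autofluorescence cdt-1 stood at 142, 140.2 and 146 CPM when low and at 212, 223 and 245 CPM when high, and in mir-240/786p::GFP at 177 to 212 CPM when low and at 219 to 260 CPM when high, both without overlap. The mir-243p::GFP groups overlapped, with 158 to 194 CPM when high and 185 to 209 CPM when low. In contrast, cdc-6 gave 0.03 ± 0.05 (adjusted p = 0.557). Of the replication list, cdt-1 was the only member that fell.

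All 3 members that encode GINS subunits rose, while the remaining subunit gene, sld-5, which is not a member, fell (its values are given with the other replication genes). The gene psf-1 (WBGene00011275; chromosome II, 9968673 to 9969630) had the largest positive fold change of all members, with 66.8 ± 10.4 CPM in long-lived and 46.6 ± 8.31 CPM in short-lived libraries (log2 fold change 0.53 ± 0.06, adjusted p = 1.585e-09; higher in 17 of 17 sorts). Its values in mir-240/786p::GFP low were 55.4, 64.4, 60.3 and 60.5 CPM, compared with 34.7, 33.9, 33.9 and 40.6 CPM in mir-240/786p::GFP high. Autofluorescence gave 70.2, 77.8 and 68.8 CPM when low and 48.5, 44.8 and 39.9 CPM when high, again without overlap. In lin-4p::GFP high the lowest, median and highest values were 59.1, 72.5 and 89.1 CPM and in lin-4p::GFP low 51.9, 54.7 and 62.6 CPM, which overlapped. The mir-243p::GFP groups of psf-1 overlapped as well, at 46.1 to 68.25 CPM when high and 44.8 to 46.6 CPM when low. The partners psf-2 and psf-3 gave log2 fold changes of 0.34 ± 0.07 (adjusted p = 5.21e-05) and 0.37 ± 0.06 (adjusted p = 1.75e-06), each higher in 16 of 17 sorts. The psf-2 call was lost without any of 10 libraries, with an adjusted p of at most 0.000124: lin-4p::GFP high 4 and low 1, autofluorescence high 2 and low 3, mir-240/786p::GFP high 1, 3 and 4 and low 3 and 4, and mir-243p::GFP high 2. Exons of psf-1 and psf-2 overlap those of another gene by 11 and 65 bases, and strand use in the counting is not given in the sources used here. Such an overlap was found for 16 of the 44 members, 5 of the 6 MCM genes among them, and for 4552 of 14194 genes with a position.

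No MCM gene passed in the pooled comparison. Their log2 fold changes ran from -0.15 ± 0.08 (mcm-7, adjusted p = 0.083) to 0.09 ± 0.08 (mcm-6, adjusted p = 0.31). The 95% interval of mcm-7 reached from -0.30 to 0.01, and that of mcm-2 from -0.16 to 0.20. The clamp gene pcn-1 and the ribonucleotide reductase subunit genes rnr-1 and rnr-2 gave -0.04, 0.00 and -0.19 on the log2 scale, and none passed at 0.0001. For rnr-2 the long-lived libraries held 904 to 1299 CPM and the short-lived ones 911 to 1769 CPM, a wide overlap (log2 fold change -0.19 ± 0.07, adjusted p = 0.027). Its highest values, 1566 and 1769 CPM, belonged to lin-4p::GFP low sorts 1 and 2, and without those sorts the log2 fold change was -0.11 (adjusted p = 0.13).

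Among the division genes the largest difference was that of cyd-1 (WBGene00000870; chromosome II, 12980591 to 12993117), the D-type cyclin that drives entry into the cell cycle with CDK-4. In lin-4p::GFP high the lowest, median and highest values were 25.0, 28.0 and 35.3 CPM, compared with 62.8, 86.8 and 122 CPM in lin-4p::GFP low. It was at 51.3, 52.9, 87.6 and 91.2 CPM in mir-243p::GFP high and at 118, 99.7, 148 and 145.0 CPM in mir-243p::GFP low. Values were 56.1, 39.9, 60.6 and 55.8 CPM in mir-240/786p::GFP low and 159, 165.0, 149 and 126 CPM in mir-240/786p::GFP high. Within every biomarker all long-lived libraries of cyd-1 thus lay below all short-lived ones. In autofluorescence the values were 40.7, 26.7 and 31.7 CPM when low and 161, 151 and 185 CPM when high. The pooled log2 fold change was -1.54 ± 0.12 (adjusted p = 1.92e-12), a 2.91-fold higher level in short-lived animals, and the direction held in 17 of 17 sorts. It was the only member whose pooled change exceeded 1 on the log2 scale, which 2890 of all genes tested did.

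Its kinase partner gene cdk-4 stood at no more than 20.1 CPM in autofluorescence low and at 27.5 to 39.2 CPM in autofluorescence high, but at 24.5 to 34.5 CPM in mir-243p::GFP high and at 25.28 to 28.3 CPM in mir-243p::GFP low, where the groups overlapped. Pooled, cdk-4 gave -0.35 ± 0.09 (adjusted p = 0.00066; lower in 15 of 17 sorts), which passed at 0.05 only. The cyclin A gene cya-1 fell from 227 ± 53.0 to 156 ± 35.5 CPM (log2 fold change -0.54 ± 0.06, adjusted p = 4.07e-09) and was lower in 17 of 17 sorts. Its exons overlap those of dos-1 by 107 bases. The cyclin E gene cye-1, which pairs with CDK-2 at the start of DNA synthesis, lay on the other side at 0.26 ± 0.10 (adjusted p = 0.023; higher in 16 of 17 sorts), and it passed at 0.0001 without lin-4p::GFP sorts 1 and 2 (adjusted p = 7.11e-05). Long-lived and short-lived libraries of cye-1 did not overlap in mir-240/786p::GFP (159 to 181 against 124 to 136 CPM) or in autofluorescence (176 to 182 against 119 to 155 CPM). They did in mir-243p::GFP (138 to 184 against 157 to 177 CPM) and in lin-4p::GFP (114.6 to 261 against 98.8 to 193 CPM). The mitotic kinase gene cdk-1 and its B-type cyclins cyb-1 and cyb-3 gave -0.06, -0.11 and -0.08, and cdk-2 gave 0.09, none of them past 0.05. The near-zero pooled value of cyb-3 covered groups whose levels lay in opposite directions. The gene was at 1069, 1266 and 1274 CPM in autofluorescence low and at 1400, 1377 and 1552 CPM in high. In mir-240/786p::GFP it was at 1554 to 1725 CPM in low and at 1243 to 1549 CPM in high. For cyb-3 the test of differences between biomarkers given below did not pass at 0.05 in the main edgeR fit. The phosphatase gene cdc-25.1, which activates CDKs in germline and embryo, gave 0.41 ± 0.11 (adjusted p = 0.00100; higher in 16 of 17 sorts). In mir-240/786p::GFP it was at 273 to 287 CPM in long-lived and at 147 to 179 CPM in short-lived libraries, and in autofluorescence at 257 to 276 and 194 to 208.5 CPM, so that neither pair of groups overlapped. In mir-243p::GFP the groups of cdc-25.1 overlapped, at 231 to 315 CPM when high and 211 to 246 CPM when low. In lin-4p::GFP its range, 178.5 to 464 CPM when high and 173 to 359 CPM when low, was far wider. It passed at 0.0001 with the sort as a block (adjusted p = 8.72e-06), without lin-4p::GFP sorts 1 and 2 (1.02e-06) and without lin-4p::GFP high 2 (8.00e-05), and also without lin-4p::GFP low 3 or with library totals only.

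The gene fzr-1 (WBGene00001510; chromosome II, 9640156 to 9644466) encodes the Cdh1-type coactivator that directs the APC/C to its substrates. It was at 61.0, 116 and 143 CPM (lowest, median and highest) in lin-4p::GFP high and at 145.4, 151 and 190 CPM in lin-4p::GFP low. It stood at 117, 115.2, 145 and 93.2 CPM in mir-243p::GFP high and at 168, 205, 189 and 213 CPM in mir-243p::GFP low. Values were 126, 113, 114 and 133 CPM in mir-240/786p::GFP low and 194 to 251 CPM in the 4 libraries of mir-240/786p::GFP high. Across all 34 libraries it was the only member without overlap, with 61.0 to 145.2 CPM in the long-lived and 145.4 to 250.7 CPM in the short-lived libraries. In autofluorescence the values were 128, 121 and 127 CPM when low and 198, 181 and 162 CPM when high. The pooled log2 fold change was -0.68 ± 0.09 (adjusted p = 4.11e-08), and it was -0.62 without lin-4p::GFP sorts 1 and 2, whose high libraries held the lowest values, 61.0 and 63.6 CPM. Its exons overlap those of ZK1307.7 by 67 bases.

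**Figure D3:**
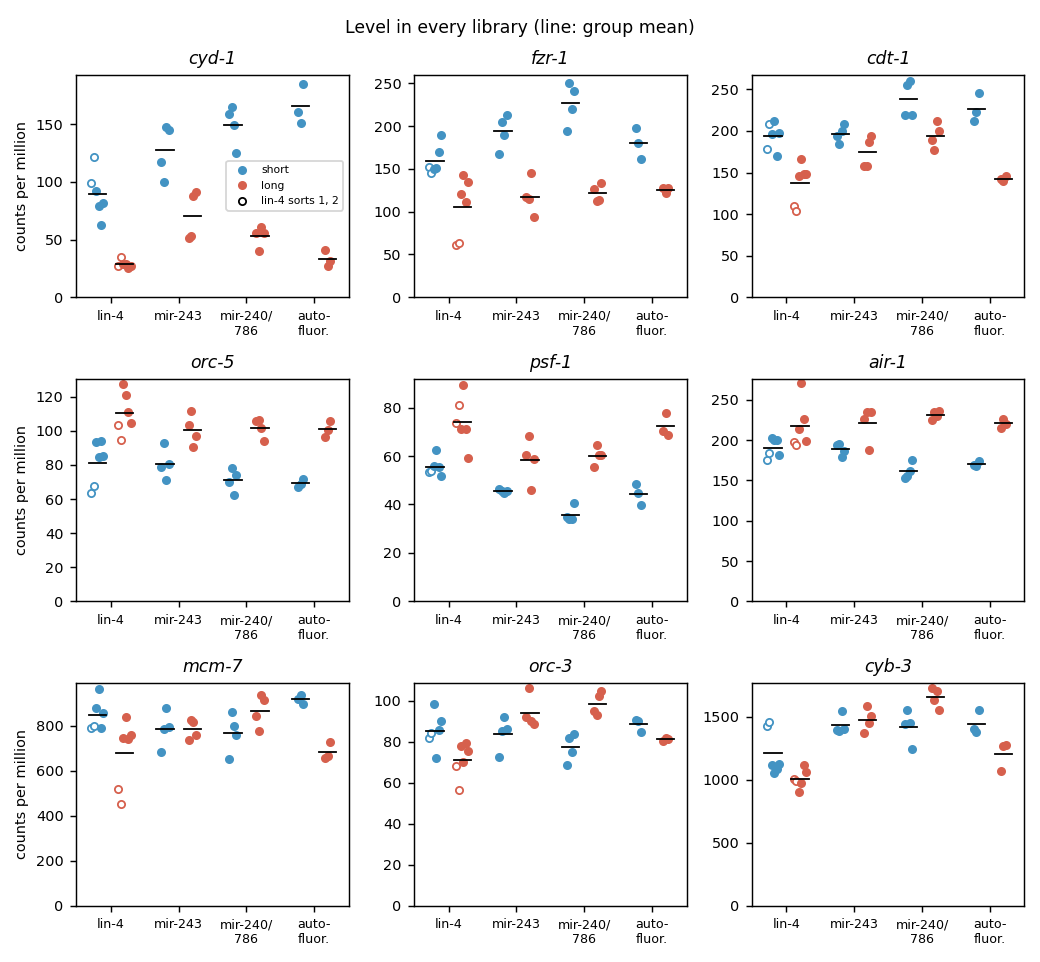
Level of 9 genes in every library, in CPM from 0, by biomarker, with predicted short-lived libraries in blue, long-lived in red, group means as lines, and lin-4p::GFP sorts 1 and 2 as open circles. cyd-1, fzr-1 and cdt-1 were lower and orc-5, psf-1 and air-1 higher on average in long-lived animals of every biomarker, whereas mcm-7, orc-3 and cyb-3 were lower in lin-4p::GFP and autofluorescence and not in mir-240/786p::GFP.

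Of the mitotic kinases and the chromosomal passenger complex, 1 of 6 rose. Aurora A (air-1), a kinase of the spindle poles, averaged 222 ± 19.8 CPM in long-lived and 179.9 ± 15.5 CPM in short-lived libraries, a small difference that was in the same direction in 17 of 17 sorts (log2 fold change 0.31 ± 0.05, adjusted p = 1.30e-06). It was at 225 to 236 CPM in mir-240/786p::GFP low against 154 to 176 CPM in high, and at 215 to 226 CPM in autofluorescence low against 169 to 174 CPM in high, without overlap. In lin-4p::GFP the ranges, 194.5 to 270.3 CPM when high and 175.5 to 203 CPM when low, overlapped, as did those in mir-243p::GFP, 188 to 234.6 CPM and 179 to 195.4 CPM. Aurora B (air-2), the kinase of the passenger complex, gave 0.12 ± 0.04 (adjusted p = 0.0058; higher in 16 of 17 sorts), with 104 to 129 CPM in all long-lived and 98.2 to 116 CPM in all short-lived libraries. Its partners differed in sign: 0.17 ± 0.06 for csc-1 (adjusted p = 0.013; 90.8 to 153.5 against 78.2 to 145 CPM), -0.09 for icp-1 and -0.05 for bir-1. Polo kinase (plk-1) gave -0.08. None of these passed at 0.0001.

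No spindle checkpoint gene and no kinetochore or condensin gene passed at 0.0001. The checkpoint kinase gene bub-1 gave -0.19 ± 0.07 (adjusted p = 0.021; lower in 16 of 17 sorts). It was at 321 to 340.1 CPM in autofluorescence low and at 399 to 448 CPM in autofluorescence high, which did not overlap, but at 227 to 456 CPM in lin-4p::GFP high and at 330.2 to 519 CPM in lin-4p::GFP low. Its long-lived and short-lived libraries also overlapped in mir-243p::GFP (310 to 374.5 against 338 to 390 CPM) and in mir-240/786p::GFP (360 to 385 against 373 to 441 CPM). The checkpoint gene mdf-2 (Mad2) gave -0.14 ± 0.06 (adjusted p = 0.038), while bub-3 and mdf-1 (Mad1) gave 0.00 and 0.08. The highest values of mdf-2, 239.6 and 279.6 CPM, were those of lin-4p::GFP low sorts 1 and 2. Without lin-4p::GFP low 2 its log2 fold change was -0.11. When single libraries were left out, its edgeR adjusted p reached 0.116. The gene knl-2, needed to load the centromeric histone, gave -0.28 ± 0.07 (adjusted p = 0.00037; lower in 15 of 17 sorts). Its groups did not overlap in mir-240/786p::GFP, at 246 to 279.9 CPM in long-lived and 311 to 397 CPM in short-lived libraries, or in autofluorescence, at 213 to 236 and 285 to 314 CPM. For knl-2 they did overlap in lin-4p::GFP (157 to 291 against 218 to 284 CPM) and in mir-243p::GFP (196.5 to 273 against 250.5 to 311 CPM). It passed at 0.0001 with the sort as a block (adjusted p = 2.09e-05), without lin-4p::GFP sorts 1 and 2 (9.14e-05) and without lin-4p::GFP high 3 (9.10e-05), and also with library totals only or with at least 10 counts in all libraries. The microtubule depolymerase gene klp-7 was higher in long-lived animals in 16 of 17 sorts. The exception was mir-243p::GFP sort 4, at 69.9 CPM when high and 147 CPM when low. Its levels ran from 69.9 to 266 CPM in long-lived and from 54.1 to 229.7 CPM in short-lived libraries, so that a log2 fold change of 0.41 had a standard error of 0.15 (adjusted p = 0.016). The scaffold knl-1, the outer kinetochore gene ndc-80 and the condensin gene hcp-6 gave -0.13, 0.09 and -0.15 on the log2 scale, and none passed at 0.05.

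To see whether this division of the list held for each biomarker, the long-lived and short-lived groups were compared within each in a model of 8 group means, at an adjusted p under 0.05. In lin-4p::GFP 16 of 44 members passed (36.4%, against 50.3% of all genes), 5 higher and 11 lower in long-lived animals. In mir-243p::GFP 5 passed (11.4% against 23.6%): orc-4, orc-5 and psf-1 were higher and cyd-1 and fzr-1 lower. In mir-240/786p::GFP 20 passed (45.5% against 51.2%), 15 higher and 5 lower, and in autofluorescence 18 passed (40.9% against 43.0%), 8 higher and 10 lower. In this model the members' share was below that of all genes in each biomarker, closely so in autofluorescence. That order turned with the sort as a block in lin-4p::GFP (65.9% against 60.8%) and without lin-4p::GFP sorts 1 and 2 in autofluorescence (63.6% against 53.8%). In autofluorescence it also turned with the block (27 of 44 members against 54.5%), DESeq2, its own libraries only, library totals only or no low-count filter. In mir-240/786p::GFP it turned with no low-count filter (19 of 44 against 39.1%), library totals only (22 against 48.7%) or its own libraries only (28 against 62.2%). In lin-4p::GFP it turned with library totals only as well (23 of 44 against 48.8%). The directions also had their own background: higher and lower genes made up 24.5% and 25.8% of all genes in lin-4p::GFP, 24.6% and 26.5% in mir-240/786p::GFP and 21.3% and 21.7% in autofluorescence. At 0.0001 the members' counts were 3, 0, 4 and 2, against 14.2%, 0.814%, 15.1% and 7.18% of all genes.

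The counts depended on single sorts and on the pairing of libraries. With the sort as a block, 29 members passed in lin-4p::GFP and 11 in mir-243p::GFP (60.8% and 37.3% of all genes). Without lin-4p::GFP sorts 1 and 2, 7 members were higher and 4 lower in lin-4p::GFP, in place of 5 and 11 (38.3% of all genes passed), while 9 passed in mir-243p::GFP (35.6%) and 28 in autofluorescence (53.8%). Fitted on its own 12 libraries, lin-4p::GFP gave 6, against 32.9% of all genes. Scaled by library totals only, it gave 4 higher and 19 lower (48.8% of all genes passed). The autofluorescence count fell to 9 without autofluorescence high 3. The mir-243p::GFP count was 2 without high 1 or high 2, 3 without low 1, low 3 or low 4 and 9 without high 3, and it was 8 without lin-4p::GFP high 2, high 3 or low 3 or without autofluorescence low 2.

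**Figure D4:**
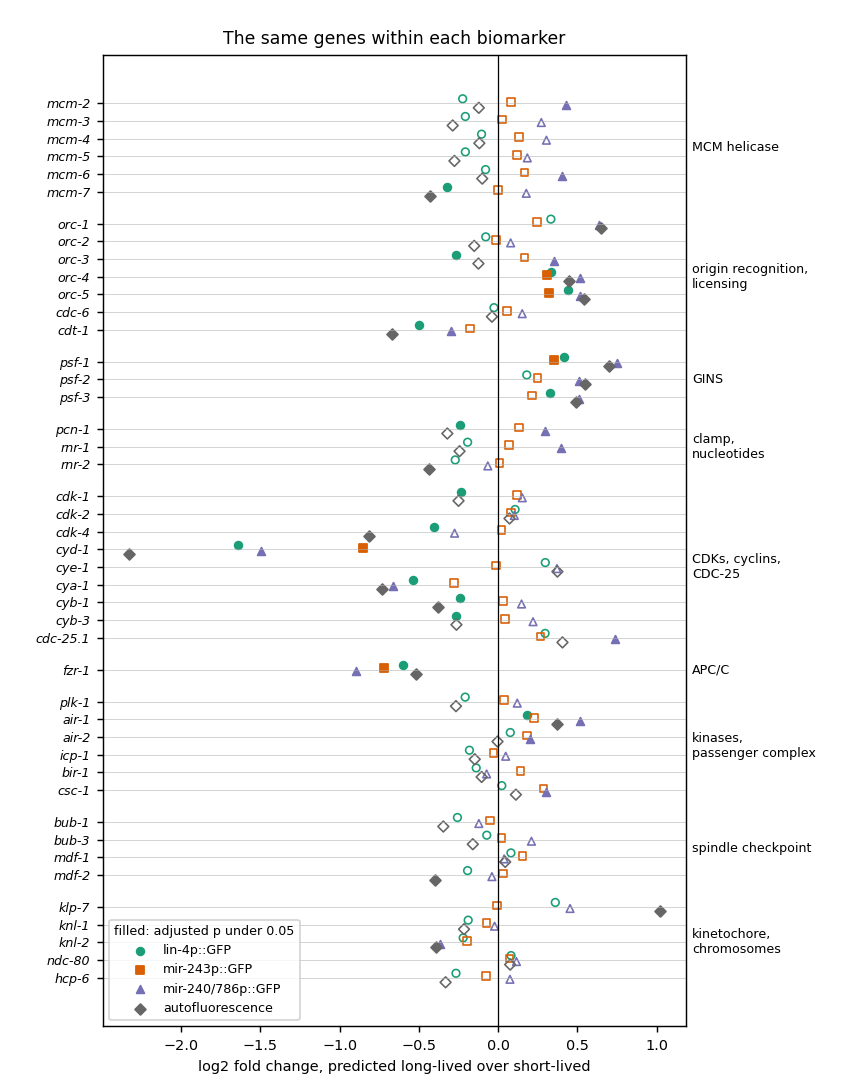
Log2 fold change of the 44 genes, predicted long-lived over short-lived, within each biomarker; filled symbols passed an adjusted p under 0.05. The psf genes of GINS lie to the right in all 4 biomarkers, cyd-1, cya-1, cdt-1 and fzr-1 to the left in all 4, and the MCM genes to the left in lin-4p::GFP and autofluorescence and to the right in mir-240/786p::GFP.

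The replication list differed most in its centre. Its median log2 fold change was -0.10 in lin-4p::GFP and -0.12 in autofluorescence but 0.13 in mir-243p::GFP and 0.35 in mir-240/786p::GFP, whereas the median of all genes stayed between -0.03 and 0.01. Without lin-4p::GFP sorts 1 and 2 the lin-4p::GFP median was -0.05. The biomarker with the highest replication median, mir-240/786p::GFP, was also the one whose long-lived libraries held the highest embryonic zygotic sums (48.5 to 58.0 CPM), whose part in the result was not tested. The division list had medians of -0.19, -0.22, 0.03 and 0.10 in the same order of biomarkers. The 4 biomarkers gave the same sign for 19 of 44 members (43.2%), 12 higher and 7 lower, whereas 70.2% of all genes had the same sign in all 4.

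None of the MCM genes kept its sign across the 4 biomarkers (0 of 6). Their log2 fold changes ran from -0.32 to -0.08 in lin-4p::GFP and from -0.43 to -0.10 in autofluorescence, from -0.0025 to 0.17 in mir-243p::GFP and from 0.18 to 0.43 in mir-240/786p::GFP. Only mcm-7 passed in lin-4p::GFP (adjusted p = 0.019) and in autofluorescence (adjusted p = 0.033), and only mcm-2 and mcm-6 in mir-240/786p::GFP (adjusted p = 0.034 and 0.023). Without lin-4p::GFP sorts 1 and 2, mcm-7 did not pass in lin-4p::GFP, where its log2 fold change went from -0.32 to -0.20 (adjusted p = 0.092). For mcm-7 the values were 655, 665 and 728 CPM in autofluorescence low and 920, 937 and 896 CPM in autofluorescence high, without overlap. In mir-240/786p::GFP the same gene was at 844, 775.0, 937 and 914 CPM when low and at 652, 862, 797 and 758 CPM when high, with the long-lived group now the higher one on average and overlapping. In lin-4p::GFP the lowest values of mcm-7, 454 and 521 CPM, were those of high sorts 2 and 1, compared with 742 to 840.4 CPM in the other high sorts.

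Sort by sort, the median log2 difference of the 6 MCM genes was below 0 in all 6 lin-4p::GFP sorts and all 3 autofluorescence sorts and above 0 in all 4 mir-240/786p::GFP sorts. It was -0.40 and -0.52 in lin-4p::GFP sorts 1 and 2, -0.22 to -0.03 in the other 4, -0.24 to -0.18 in autofluorescence, -0.02 to 0.19 in mir-243p::GFP and 0.14 to 0.38 in mir-240/786p::GFP. Over the same sorts the median of the 12 oocyte and eggshell markers was above 0 in all 17, from 0.23 to 1.21, and it was 0.77 to 1.14 in autofluorescence, where the MCM medians were below 0. The part of germline content in the MCM differences was not tested. The median of the GINS genes psf-1, psf-2 and psf-3 was above 0 in 16 of 17 sorts.

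**Figure D5:**
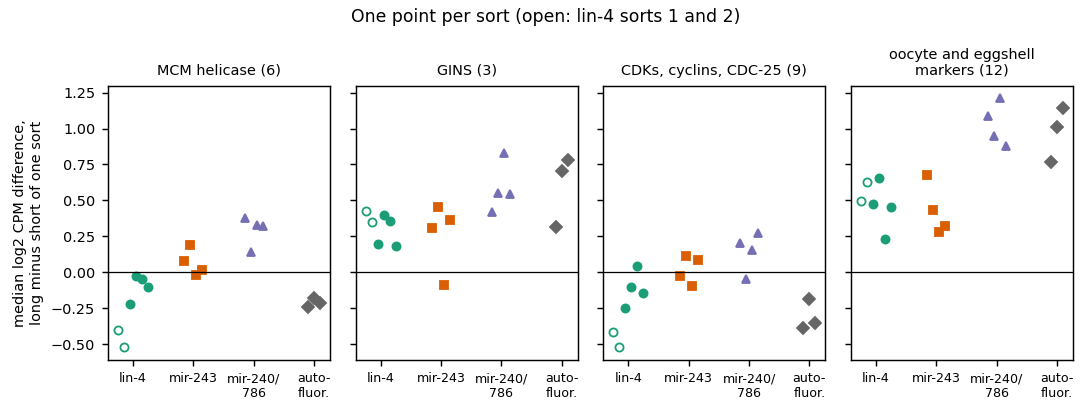
Median difference in log2 CPM, long-lived minus short-lived library of the same sort, for 3 groups of members and for 12 oocyte and eggshell markers; each point is a sort and open circles are lin-4p::GFP sorts 1 and 2. MCM medians lie below 0 in every lin-4p::GFP and autofluorescence sort and above 0 in every mir-240/786p::GFP sort, whereas the markers lie above 0 in all 17.

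The pattern of the MCM genes, lower in lin-4p::GFP and autofluorescence and higher in both other biomarkers, was counted over all genes after it had been seen. By the sign of the fold change it was held by 14 members, 9 of replication and 5 of division, among them mcm-2 to mcm-6, from which the pattern was taken. It was held by 6 of 33 other replication genes (18.2%), 4 of 47 other mitosis genes (8.51%), 4 of 28 cell cycle regulators (14.3%) and 3.09% of all genes. Besides the MCM genes the members were orc-3, cdc-6, pcn-1, rnr-1, cdk-1, cyb-1, cyb-3, plk-1 and bub-3. Most of these signs belong to differences that did not pass a test.

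Whether the long-lived to short-lived difference varied between the biomarkers was tested directly as an interaction. At an adjusted p under 0.05, 2 of 44 members passed (4.55%), against 1.74% of all genes. The ORC subunit orc-3 (adjusted p = 0.030) gave -0.26 in lin-4p::GFP, 0.17 in mir-243p::GFP, 0.35 in mir-240/786p::GFP and -0.12 in autofluorescence. Its values were 94.8, 93.0, 102 and 105 CPM in mir-240/786p::GFP low and 68.7, 81.9, 75.03 and 83.7 CPM in mir-240/786p::GFP high, but 80.3, 82.0 and 81.5 CPM in autofluorescence low and 90.7, 90.3 and 84.7 CPM in autofluorescence high. Both pairs of groups were free of overlap, in opposite directions. For cyd-1 (adjusted p = 0.030) the sign was the same in all 4 and the size differed, from -0.85 ± 0.19 in mir-243p::GFP to -2.33 ± 0.23 in autofluorescence.

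This test depended on the model. With the sort as a block 17 of 44 members passed, a larger share than the 16.0% of all genes. These included all 6 MCM genes (adjusted p from 0.0052 to 0.037). Without lin-4p::GFP sorts 1 and 2 the count was 14 of 44, also a larger share than the 14.4% of all genes, and 5 MCM genes were among them. It was 1 when any of 10 libraries was left out: autofluorescence high 3 or low 2, mir-240/786p::GFP high 1 or 3 or low 3 or 4, or mir-243p::GFP high 3 or 4 or low 1 or 2.

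The remaining genes of the same pathways were taken from 3 lists. In each, the share that passed in the pooled comparison was below the 40.6% of all genes. Of 33 other replication genes, 5 rose and 1 fell (18.2%). The largest rises were those of dhfr-1, dihydrofolate reductase (log2 fold change 0.51 ± 0.07, adjusted p = 2.75e-08), and cdc-7, the kinase that triggers loaded helicases (0.49 ± 0.06, adjusted p = 4.18e-09). The one that fell was sld-5, the remaining subunit of GINS, with 42.8 ± 4.85 CPM in long-lived and 52.3 ± 6.56 CPM in short-lived libraries (-0.29 ± 0.05, adjusted p = 1.58e-05; lower in 15 of 17 sorts). With the sort as a block sld-5 did not pass (adjusted p = 0.00016), and 8 genes of this list were higher and 2 lower. In that fit 44.5% of all genes passed. The 4 genes of this complex therefore did not share a direction.

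Of 47 other mitosis genes, 3 rose and 4 fell (14.9%). With the sort as a block 10 were higher and 5 lower, where 44.5% of all genes passed. The kinetochore gene kbp-1 (0.44 ± 0.07, adjusted p = 4.74e-07) and the APC/C subunit gene apc-2 (0.32 ± 0.07, adjusted p = 5.97e-05) were the largest rises. The condensin gene mix-1 (-0.52 ± 0.08, adjusted p = 1.52e-06) and the microtubule-binding gene cls-2 (-0.49 ± 0.08, adjusted p = 1.45e-06) were the largest falls. Of 28 cell cycle regulators, 5 rose and 4 fell (32.1%). The CDK inhibitor gene cki-1, which holds cells out of the cycle, fell from 76.4 ± 30.99 to 19.4 ± 10.1 CPM (-2.01 ± 0.19, adjusted p = 3.47e-11) in 17 of 17 sorts, a fall larger than that of cyd-1. The phosphatase gene cdc-25.2 fell by 0.69 ± 0.09 on the log2 scale (adjusted p = 6.65e-08). The B-type cyclin genes cyb-2.2 and cyb-2.1 rose (0.73 ± 0.08 and 0.70 ± 0.08, adjusted p = 2.14e-09 and 5.80e-09). They are close copies of each other, so the split of reads between them is uncertain.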

How the data were processed

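Whole sorted animals were sequenced by a provider after oligo(dT) selection, ribosomal depletion and random priming. The authors deposited raw counts per gene, 20223 features by 34 libraries, of which 14 held no count. The submitters' processing notes name STAR 2.7.3a, featureCounts and build WBcel235; annotation release, strand use and treatment of multi-mapping reads are not given in the sources used here. Positions and exon lengths came from Ensembl release 115 (WBcel235). Replicates are separate sorts, and no pair of libraries of the same group agreed within counting noise (chi-square per degree of freedom 10.4 to 257). PCR copies were not marked.

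Counts were scaled by TMM and tested with edgeR 4.0.16 (quasi-likelihood, under R 4.3.3). P-values were adjusted by Benjamini-Hochberg over the 14245 genes that held 5 or more counts in 26 of 34 libraries (75%, the filter of the study). The transgene gfp counted towards library sizes but was not tested. CPM values are TMM-scaled; a prior count of 2 was added for log2 CPM. Steps were tested on simulated data. The sequencing batch of the study is not in the labels used here, so none was fitted. High and low libraries of a sort share its number in the labels and so are paired; their deviations correlated at -0.07 to 0.57, highest with the own partner in 12 of 17 sorts. As in the study no block was fitted; it is an alternative, as are DESeq2 1.42.0, RLE, library totals only, other filters, lin-4p::GFP without sorts 1 and 2, a biomarker's own libraries only, and leaving out each library.

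The members, the marker and pathway lists and the tests were chosen with earlier results of these data known. Values are given for the member with the largest change and the smallest p of each role. They are also given for members opposite in sign to their list's median at 0.05 and for the 2 smallest interaction p. The highest and lowest level and the 2 largest rises and falls of each further list are included. For some of these genes only part of the groups, or ranges over all groups, are shown.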

Additional observations from a re-analysis of the deposited data

Results flagged for a closer look

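A single library lay far from the others of its group, by Dixon's ratio at the 95% level, in 5 of 120 group values tested. Chance gives about 1 in 20. The gene psf-1 was at 40.6 CPM in mir-240/786p::GFP high 4, against 33.9 to 34.7 CPM in the other 3 libraries. Aurora A (air-1) was at 187.7 CPM in mir-243p::GFP high 3, against 226.7 to 234.6 CPM. The gene cdc-25.1 was at 246.3 CPM in mir-243p::GFP low 2, against 211.1 to 215.0 CPM. The cyclin cyb-3 was at 1545 CPM in mir-243p::GFP low 3, against 1384 to 1400 CPM, and cdk-4 was at 34.5 CPM in mir-243p::GFP high 4, against 24.5 to 25.5 CPM. Of these 5 values, 4 are from mir-243p::GFP libraries. The change with predicted lifespan varied between the biomarkers for orc-3 (interaction, edgeR adjusted p = 0.0305) and cyd-1 (adjusted p = 0.0303).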

How the results depend on the processing

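In the pooled comparison all 11 members that passed also passed with no low-count filter, with at least 10 counts in all 34 libraries, with RLE, with DESeq2 and with the sort as a replicate block, and with library totals only 10 of 11 did (psf-3 did not). Members gained were knl-2 with at least 10 counts, cdc-25.1 and knl-2 with library totals only and with the block, and these with cye-1 without lin-4p::GFP sorts 1 and 2. Without lin-4p::GFP sorts 1 and 2 the division count was 7 in place of 4, and 43.3% of all genes passed in place of 40.6%. Within biomarkers, the replicate block raised the counts of members that passed to 29 for lin-4p::GFP and 11 for mir-243p::GFP and the interaction count to 17, and changed the others by no more than 1.5 times. Leaving out lin-4p::GFP sorts 1 and 2 gave 9 for mir-243p::GFP, 28 for autofluorescence and 14 for the interaction, and the 12 lin-4p::GFP libraries alone gave 6 (32.9% of all genes). The interaction count was 1 with library totals only (0.0983% of all genes) and 6 with DESeq2 (7.2%). The cause of these shifts was not tested. Leaving out each library in turn gave 5 to 7 replication and 4 to 5 division members in the pooled comparison, 12 to 19 members in lin-4p::GFP, 2 to 9 in mir-243p::GFP, 14 to 22 in mir-240/786p::GFP, 9 to 21 in autofluorescence and 1 to 3 for the interaction. The pooled median ranged from -0.01 to 0.06 for replication and from -0.09 to -0.03 for division. Values near 0 changed sign, among them cyb-3 without lin-4p::GFP sorts 1 and 2 (0.0013), and orc-3 with the stricter filter (-0.0078), with library totals only (-0.0172) and in 7 of 34 leave-one-out fits (all 34 ranged from -0.0167 to 0.0514). Leaving out 1 library also took mcm-2 (to -0.0111), pcn-1 (to 0.0098), rnr-1 (to 0.0411) and bub-3 (to -0.0168) across 0. No scaling moved the median of all genes by over 0.1. Groups of 3 or 4 libraries limit the comparisons within biomarkers.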
